A study of Homo sapiens with 8 samples.

Results

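The comparison set T47D cells that received siRNA against 17β-HSD1 and then estradiol (E2) against T47D cells that received scrambled control siRNA and then vehicle. T47D is an established breast cancer line of luminal type that carries the estrogen receptor. The comparison used 4 of the 8 arrays of the series, 2 per group, chosen by the siRNA and the treatment in the sample labels. All groups, controls included, spent 2 days without steroids in the medium and were then transfected with siRNA at 200 nM, which was a mixture of 3 sequences in the case of 17β-HSD1. After 48 h the medium was changed to one with 1 nM E2 or with ethanol, the vehicle, and RNA was taken 2 days later. The labels state that the replicates came from 2 independent culture experiments and number them 1 and 2 in each group. The number was taken here as the experiment, although the labels do not say so outright. The other 4 arrays, control siRNA with E2 and 17β-HSD1 siRNA with vehicle, changed 1 factor each. They were used to divide the net difference into an E2 part and an siRNA part, and to estimate the spread. Each value is the log2 signal of a probe set on an Affymetrix Human Gene 1.0 ST array, and 18417 genes were measured through 1 probe set each.

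Estradiol binds the estrogen receptor, which acts on target genes at estrogen response elements and through other DNA-bound factors, and in luminal breast cancer cells it drives the cell cycle. 17β-HSD1, encoded by HSD17B1, reduces the weak estrogen estrone to estradiol, the same hormone that was added from outside. Double-stranded RNA, of which siRNA is a short form, is a known trigger of innate sensors. Among them RIG-I and MDA5 lead to interferon and to interferon-stimulated genes, and the OAS enzymes make the signal that activates RNase L.

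Luminal markers were high on average in both groups. The mean signal of the 12 luminal markers was 11.30 and 11.12 in the control siRNA, vehicle arrays and 11.23 and 11.28 in the 17β-HSD1 siRNA, E2 arrays. The keratin genes KRT8, KRT18 and KRT19 lay between 12.52 and 14.07 in these 4 arrays. The estrogen receptor gene ESR1 lay between 8.60 and 8.96. The luminal marker TFF1 was dimmer, between 7.56 and 7.77, near the level of the basal marker KRT14 (7.59 to 7.97). Markers of immune, endothelial and fibroblast cells averaged 5.86 to 6.79, below the array medians of 7.26 to 7.31 in the same arrays. Basal markers averaged 7.32 to 7.62. Some members went against these averages and lay above the medians. They included the fibroblast markers COL1A1 (8.79 to 8.94) and COL3A1 (7.33 to 7.47) and the endothelial marker CLDN5 (8.19 to 8.45). The 4 measured basal markers all had a net difference above 0, with a median of 0.23. None of the 21 measured markers of basal, immune, endothelial or fibroblast cells had an unadjusted net p below 0.05. The array of 17β-HSD1 siRNA with vehicle, replicate 1, stood apart from the other 7 on the first principal component. It entered the net comparison through the spread and the division into parts, not through the net difference itself.

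HSD17B1, the targeted gene, had a signal of 9.35 and 8.66 with control siRNA and vehicle and 8.32 and 8.37 with 17β-HSD1 siRNA and E2. Both arrays with the combined treatment were lower than both controls, but the controls differed from each other by about as much as the groups did. The net difference was -0.66 ± 0.23 (SE, 2 arrays against 2), which is 0.634-fold. Its adjusted p by limma was 0.871, or 0.367 with the replicate number as a block. Without control siRNA, vehicle replicate 1 the difference was -0.31, and without replicate 2 it was -1.002. Its E2 part was -0.10 and its siRNA part -0.56. The difference did not pass the threshold, and the group names below are those of the labels.

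When both factors changed, 1 gene passed the threshold. GREB1, an estrogen-induced gene whose product is a cofactor of the estrogen receptor, had a signal of 8.65 and 8.38 in the control arrays and 10.20 and 10.43 after the combined treatment. The groups were well apart, with over 1.5 log2 units between the nearest arrays. GREB1 rose by 1.80 ± 0.17 on the log2 scale, or 3.48-fold (95% interval of the log2 change 1.44 to 2.16), with a limma adjusted p of 0.00569. Called means an adjusted p below 0.05, after Benjamini-Hochberg adjustment over all probe sets with a gene symbol. Higher calls made up 0.00543% of all genes and lower calls 0%. The call on GREB1 did not hold without control siRNA, vehicle replicate 2, nor without replicate 1 or replicate 2 of 17β-HSD1 siRNA with E2.

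The fit that takes the replicate number as a block called 61 genes higher and 4 lower, or 0.331% and 0.0217% of all genes. Same-numbered arrays of the 2 groups compared did not deviate together from their group means (r = 0.0075 across probe sets). With replicates 1 and 2 of control siRNA with vehicle exchanged, a block chosen after seeing the data, the counts were 7 and 1. All 65 had groups that did not overlap, which was also true of 15.4% of all genes with the combined treatment higher and 17.4% with it lower. Of the 65, 23 were on the list of 38 measured interferon-stimulated genes. This list and the others below were written with earlier results of these data known. These counts depended on single arrays. The blocked fit called 1 gene higher and 0 lower without 17β-HSD1 siRNA, E2 replicate 1, and 36 higher and 0 lower without replicate 2 of that group. Without control siRNA, vehicle replicate 2 it called 45 higher and 32 lower. At an unadjusted p below 0.05 without the block, 383 genes (2.08%) were higher and 323 (1.75%) lower. That is 706 in all, fewer than the 920.85 that a uniform spread of p-values would give. The statements below that rest on the blocked fit say so.

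Because the 4 groups are balanced, the net difference of a gene is exactly the sum of its E2 change averaged over both siRNAs and its siRNA change averaged over both media. The E2 part passed its threshold upward in 257 genes (1.4%) and downward in 45 (0.244%), and the siRNA part upward in 38 (0.206%) and downward in 44 (0.239%). A net difference was described as mainly E2 or mainly siRNA where the other part was under 25% of it, as from both parts where each gave at least 25% in the same direction, and as opposed where the smaller part ran against it by at least 25%. The parts share arrays with the net difference, and their sizes choose the class. The classes are therefore a description without a test.

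**Figure D1:**
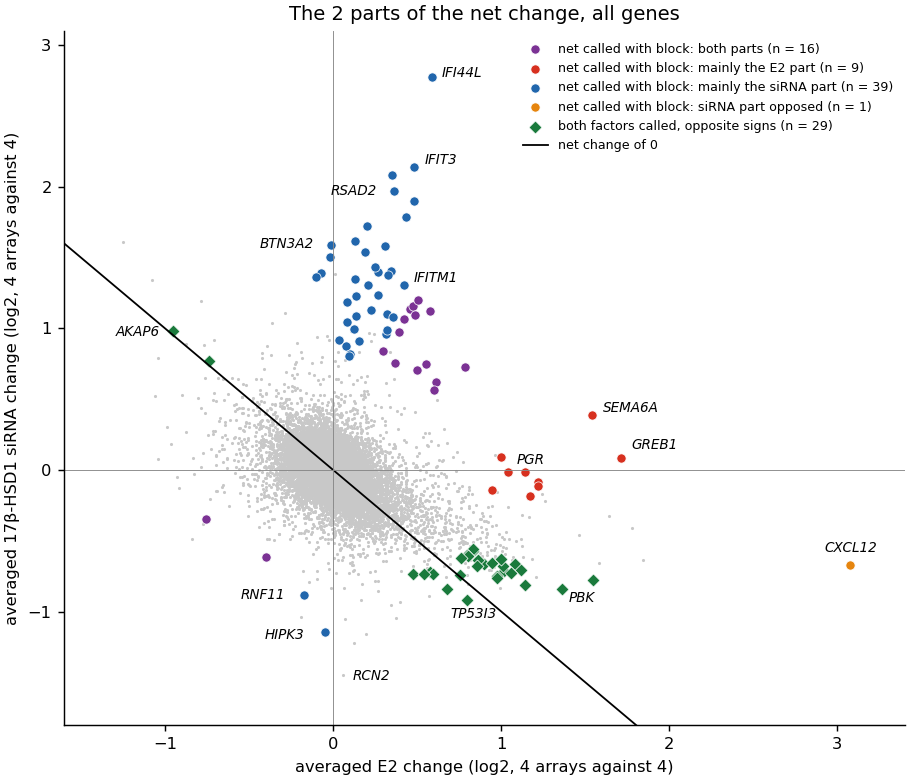
Each point is 1 of the 18417 genes, with the E2 part of its net change on the x axis and the siRNA part on the y axis, both as log2 differences of 4 arrays against 4. On the black diagonal the parts sum to 0. The 61 higher genes called with the block lie above it and the 4 lower ones below it. Of the 61, 37 follow the siRNA axis (IFI44L at 2.77) and 9 the E2 axis (GREB1 at 1.71). Another 14 lie between the axes, and CXCL12 has a negative siRNA part. The 29 green genes, called for both factors with opposite signs, lie nearer to the diagonal at net changes from -0.26 to 0.77.

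Of the 65 genes called with the block, 9 owed their net rise mainly to the E2 part. Beside GREB1 they were PGR, the progesterone receptor gene, RERG, a Ras-like growth inhibitor gene, GRPR, the receptor for gastrin-releasing peptide, RAPGEFL1, OLFM1, SEMA6A, which encodes a semaphorin, FMN1, an actin-nucleating formin gene, and PFKFB3, which encodes a regulator of glycolysis. PGR had a signal of 10.13 and 10.10 in the controls and 10.98 and 11.30 after the combined treatment, a net difference of 1.03 ± 0.19, 2.04-fold. Its E2 part was 1.04 and its siRNA part -0.02, so that the net difference and the E2 part were almost equal. RAPGEFL1 had a signal of 7.53 and 7.32 in the controls against 8.48 and 8.58, and OLFM1 7.33 and 7.33 against 8.38 and 8.45. In both genes the combined-treatment arrays lay about 1 log2 unit above the controls and the siRNA part was small (-0.11 and 0.09). SEMA6A had the largest net difference of the 9, 1.93 ± 0.32, from 6.80 and 7.57 to 8.91 and 9.32, with an E2 part of 1.54 and an siRNA part of 0.39. PFKFB3 depended most on the pairing: its arrays were 8.73 and 7.88 against 9.97 and 8.90, so replicate 2 after the combined treatment lay just above replicate 1 of the controls. Its limma adjusted p was 0.956 without the block and 0.0173 with it. Over the 9 genes the limma adjusted p with the block lay between 0.0039 and 0.0465. Without the block GREB1 alone passed.

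CXCL12, the chemokine that acts on the receptor CXCR4, kept an E2 rise against an siRNA part of the other sign. Its signal was 8.79 and 7.62 in the controls and 10.46 and 10.76 after the combined treatment. The controls were far apart, yet both lay more than 1.5 log2 units below both other arrays. The net difference was 2.40 ± 0.32, 5.29-fold, made of an E2 part of 3.07 and an siRNA part of -0.67. The limma adjusted p was 0.0755 without the block and 0.0091 with it. Between the replicates numbered 1 the net difference was 1.67, and between those numbered 2 it was 3.14. The siRNA part of CXCL12 did not pass its own test (limma adjusted p = 0.307). CXCL12 was the only gene of the 65 in the opposed class.

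In 39 of the 65 genes the net difference was mainly the siRNA part, 37 higher and 2 lower, and 17 were on the interferon-stimulated list. The class held 22 genes with a share of 15% in place of 25%, 48 with 35%, and 4 with the exchanged numbers in the block. IFI44L had the largest net difference of all genes. Its signal was 5.97 and 6.35 in the controls and 9.52 and 9.53 after the combined treatment, with the latter arrays nearly equal to each other. The net difference was 3.36 ± 0.45, 10.3-fold, with an E2 part of 0.59 and an siRNA part of 2.77. The limma adjusted p was 0.0755, and 0.0039 with the block. IFIT3, whose product is an interferon-induced protein of the IFIT antiviral family, went from 7.04 and 7.64 to 9.59 and 10.34, a net difference of 2.62 ± 0.50. RSAD2, which encodes the antiviral enzyme viperin, went from 6.53 and 7.14 to 8.97 and 9.37, a net difference of 2.34 ± 0.47. For both genes the lower array after the combined treatment was over 1.5 log2 units above the higher control, and the blocked limma adjusted p was 0.0039. IFITM1, which encodes a membrane protein that blocks virus entry, had close replicates in both groups: 9.97 and 9.82 against 11.67 and 11.57, a net difference of 1.73 ± 0.24. The chemokine gene CCL5, the IFIT genes IFIT1 and IFIT2, IFI44, XAF1, DDX60 and DDX60L were in the same class.

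The promoters of these genes are shown because their net rise was shared and the core of the interferon-stimulated response element, GAAANNGAA on either strand, is common among them. The 250 bases before the start are given for 1 listed RefSeq promoter per gene, on the plus strand of GRCh38.p14. Capitals mark the core as written or its reverse complement. The windows are chr1:78620198-78620447 for IFI44L, chr10:89332279-89332528 for IFIT3 and chr2:6865635-6865884 for RSAD2.
IFI44L: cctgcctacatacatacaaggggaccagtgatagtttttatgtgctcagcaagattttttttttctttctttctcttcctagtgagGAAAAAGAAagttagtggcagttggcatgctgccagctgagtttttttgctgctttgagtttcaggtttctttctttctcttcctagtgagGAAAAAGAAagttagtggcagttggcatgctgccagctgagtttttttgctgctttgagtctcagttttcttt
IFIT3: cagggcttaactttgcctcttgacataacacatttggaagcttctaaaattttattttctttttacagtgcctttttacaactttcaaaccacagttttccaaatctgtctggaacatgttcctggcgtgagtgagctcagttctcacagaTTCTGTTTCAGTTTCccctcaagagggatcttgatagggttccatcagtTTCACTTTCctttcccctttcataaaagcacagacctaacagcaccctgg
RSAD2: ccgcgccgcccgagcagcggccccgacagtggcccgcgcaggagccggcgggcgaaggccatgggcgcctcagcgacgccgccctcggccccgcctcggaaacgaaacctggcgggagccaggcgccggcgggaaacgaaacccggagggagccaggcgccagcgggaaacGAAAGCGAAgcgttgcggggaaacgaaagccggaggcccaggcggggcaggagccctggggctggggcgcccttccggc
IFI44L holds the core at 164 and 73 bases before the start, inside a repeated stretch. IFIT3 holds it 3 times on the minus strand, at 99, 93 and 50 bases before the start, and the first 2 matches overlap. RSAD2 holds it once, at 79 bases. Of the 37 mainly siRNA genes that were higher, 27 had a listed promoter, and 18 of these (66.7%) held the core in at least 1 promoter window of 300 bases. Among the genes higher from both parts 6 of 12 held it (50%), among the mainly E2 genes 0 of 6, and among all measured genes with a promoter 1303 of 14239 (9.15%). Over all 35116 promoters in the table the share was 8.11%. The estrogen response element, here GGTCA and TGACC with 3 bases between and read on both strands, was in 5 of the 14239 genes and in 0 of the 6 mainly E2 genes. A match is a string of letters and not a measured site.

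**Figure D2:**
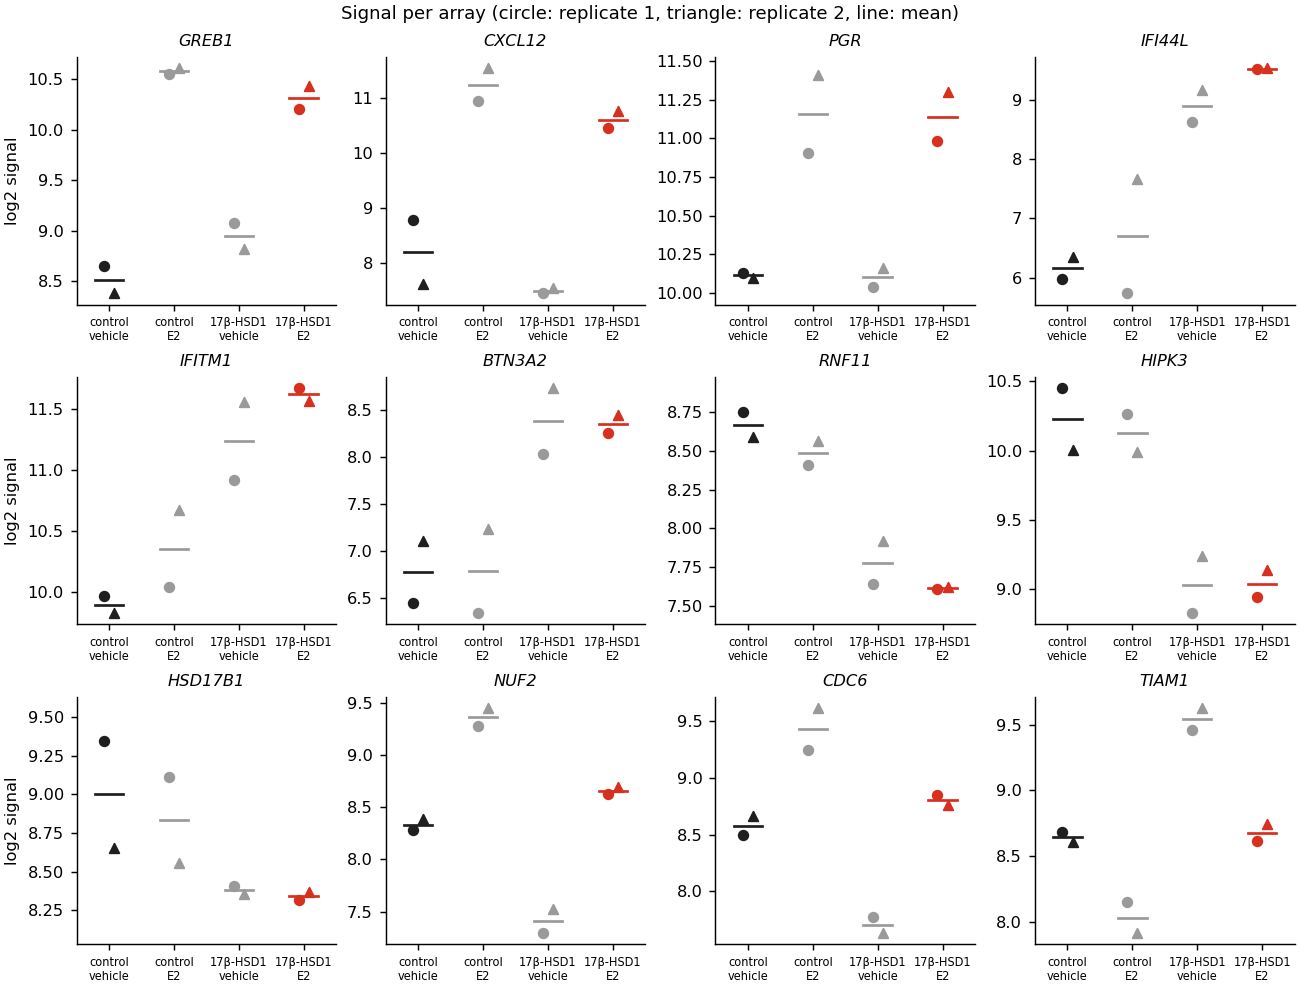
The log2 signal of 12 genes is drawn for each array, with the compared groups in black (control siRNA, vehicle) and red (17β-HSD1 siRNA, E2), the other groups in grey, circles for replicate 1, triangles for replicate 2 and a line at each group mean. GREB1, CXCL12 and PGR are high in both E2 groups, IFI44L, IFITM1 and BTN3A2 in both 17β-HSD1 siRNA groups, and for NUF2, CDC6 and TIAM1 the red points lie nearer to the black ones than either grey group does.

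Genes of the list for class I antigen presentation, on which butyrophilin genes were also placed, were in the mainly siRNA class too. BTN3A2, one of these butyrophilin genes, had a signal of 6.44 and 7.11 in the controls and 8.26 and 8.45 after the combined treatment. Its net difference of 1.58 ± 0.31 equalled its siRNA part of 1.59, with an E2 part of -0.01. TAP1, a subunit of the transporter that carries peptides into the endoplasmic reticulum, went from 9.92 and 10.10 to 11.27 and 11.19, and PSMB9, an immunoproteasome subunit gene, from 8.88 and 9.06 to 10.47 and 10.19. The arrays of the 2 groups did not overlap for any of the 3 genes. Of the 15 measured genes of the list, 6 passed with the block and 0 without it, against 61 and 1 higher of all 18417. The 6 were the butyrophilin genes BTN3A1, BTN3A2 and BTN3A3, and ERAP2, PSMB9 and TAP1. B2M did not pass with the block (limma adjusted p = 0.0753). The median net difference of the list was 0.91, with medians of -0.01 for the E2 part and 0.94 for the siRNA part.

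RNF11, a RING finger gene, and HIPK3, a protein kinase gene, were the lower genes of the mainly siRNA class. RNF11 had a signal of 8.75 and 8.59 in the controls and 7.61 and 7.62 after the combined treatment. HIPK3 had 10.45 and 10.01 against 8.94 and 9.14. Both pairs of groups were clearly apart, by more than 0.8 log2 units between the nearest arrays. The net differences were -1.06 ± 0.16 and -1.19 ± 0.20, with limma adjusted p of 0.0884 and 0.134, and 0.0173 and 0.0300 with the block. RCN2, which encodes a calcium binder of the secretory pathway, had the most negative net difference of all genes, -1.39 ± 0.26, from 10.80 and 10.39 to 9.11 and 9.28. CHUK, the gene of IκB kinase α, had -0.98 ± 0.19, from 9.73 and 9.29 to 8.41 and 8.64. Neither RCN2 nor CHUK passed the limma threshold with the block (adjusted p = 0.0511 and 0.0627). Their siRNA parts were -1.45 and -1.05 and their E2 parts 0.06 and 0.07, so the net differences were close to the siRNA parts.

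The E2 and siRNA parts had the same sign, each at 25% or more of the net difference, in 16 of the 65 genes, 14 higher and 2 lower. With a share of 15% the class held 34 genes, and with 35% it held 6, none of them among PLSCR1, HERC5, OAS1 and OAS3. With the exchanged numbers in the block it held 0. Of the 14, 6 were on the interferon-stimulated list, among them PLSCR1, HERC5 and HERC6. PLSCR1, an interferon-inducible scramblase gene, had a signal of 8.24 and 8.28 in the controls and 9.87 and 10.05 after the combined treatment. The net difference was 1.70 ± 0.31, from an E2 part of 0.58 and an siRNA part of 1.12. HERC5, which encodes a ligase for the ubiquitin-like modifier of the interferon response, went from 6.14 and 6.28 to 7.48 and 8.14, with parts of 0.46 and 1.14. OAS1 and OAS3, which make the signal that activates RNase L, had net differences of 1.48 ± 0.36 and 1.58 ± 0.35 with E2 parts of 0.42 and 0.48. For all 4 genes the siRNA part was the larger and neither part passed its own limma threshold (adjusted p from 0.0559 for the siRNA part of PLSCR1 to 0.794 for the E2 part of OAS1). The E2 part of these genes contains the array of control siRNA with E2, replicate 2. IFI44L, a gene of the mainly siRNA class, stood there at 7.67 against 5.73 in replicate 1. Over the 38 measured genes of the interferon-stimulated list, the median E2 change with control siRNA, which uses that array, was 0.29. With the targeting siRNA, where that array is not used, the median E2 change of the list was 0.31. How much of the E2 part that array accounts for was not tested gene by gene. With replicate 2 left out of the fit without the block, the class held 4 genes and the mainly siRNA class 41, and with replicate 1 left out 31 and 12.

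The most even split was in SERPINI1 and PPM1K, named here after their values were seen. SERPINI1, which encodes the protease inhibitor neuroserpin, had a signal of 6.29 and 6.72 in the controls and 7.62 and 7.72 after the combined treatment. Its net difference of 1.17 ± 0.21 came from an E2 part of 0.60 and an siRNA part of 0.57. PPM1K, a mitochondrial protein phosphatase gene, went from 7.71 and 8.00 to 8.85 and 9.32, with parts of 0.61 and 0.62. In both genes the groups were apart, and the limma adjusted p with the block was 0.0091 (0.171 and 0.264 without it). TM4SF1, a tetraspanin-like membrane protein gene, and TMT1A, a methyltransferase gene, were the 2 that were lower from both parts. TM4SF1 went from 8.80 and 9.32 to 7.93 and 7.98, with an E2 part of -0.76 and an siRNA part of -0.35. TMT1A went from 10.08 and 10.00 to 8.84 and 9.21, with parts of -0.40 and -0.61. No array of the combined treatment reached the controls in either gene.

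Both factors were called with opposite signs, and the net difference was not called, in 29 genes. The net difference is the sum of the parts. Its small size beside them therefore follows from the choice and is a description only. In 27 the E2 part was positive and the siRNA part negative, and in AKAP6 and TIAM1 the signs were the other way round. The 29, out of 18417 genes, held 10 of the 49 measured genes of the mitosis list and 2 of the 49 of the replication list. Both lists were written with earlier results of these data known. The median E2 part was 0.85, the median siRNA part -0.71 and the median net difference 0.22, with a range from -0.26 to 0.77. The net p without adjustment was at or above 0.05 in 25 of the 29. A p above the threshold does not show that a gene returned to its control level, and the intervals give the range that these arrays allow.

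NUF2, which encodes a kinetochore subunit, had a signal of 8.28 and 8.39 in the controls and 8.62 and 8.69 after the combined treatment. With E2 alone it stood at 9.28 and 9.45, and with 17β-HSD1 siRNA alone at 7.30 and 7.53. The combined arrays lay just above the controls, and both single-factor groups lay further out on either side. The net difference was 0.33 (95% interval -0.004 to 0.66), from parts of 1.14 and -0.81. CDC6, which loads the replicative helicase, stood at 8.50 and 8.66 in the controls and at 8.85 and 8.76 after both. It was at 9.24 and 9.62 with E2 alone and at 7.78 and 7.63 with the siRNA alone, in the same order as NUF2. Its net difference was 0.22 (-0.14 to 0.59).

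PBK, a mitotic kinase gene, kept more: 8.26 and 8.40 in the controls against 8.84 and 8.86, a net difference of 0.52 (0.12 to 0.93) from parts of 1.36 and -0.84. RBM24, an RNA-binding protein gene, had the largest net difference of the 29, 0.77 (0.34 to 1.198), from 7.50 and 6.86 to 7.87 and 8.03. In both genes the combined arrays lay above both controls. TP53I3, a p53-induced oxidoreductase gene, lay at 10.92 and 10.44 in the controls and 10.80 and 10.32 after both, with groups that overlapped. Its net difference was -0.12 (-0.58 to 0.34) from parts of 0.80 and -0.92. The histone gene H4C4 had a net difference of 0.01 (-0.40 to 0.43) from parts of 0.75 and -0.74. KIF20A, a mitotic kinesin gene, had 0.21 (-0.20 to 0.63) from parts of 0.98 and -0.76.

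TIAM1, a guanine nucleotide exchange factor gene for the GTPase Rac, moved the other way round. Its signal was 8.68 and 8.61 in the controls and 8.61 and 8.75 after the combined treatment, so the groups overlapped. It was 8.15 and 7.92 with E2 alone and 9.46 and 9.63 with the siRNA alone. The net difference was 0.03 (-0.30 to 0.37) from an E2 part of -0.74 and an siRNA part of 0.77. AKAP6, a scaffold gene for protein kinase A, had 7.80 and 8.44 in the controls and 8.21 and 8.09 after both, a net difference of 0.03 (-0.42 to 0.49) from parts of -0.95 and 0.99. In AKAP6 the controls enclosed both combined arrays. The 29 were 96 with the block, and 0 without replicate 1 or without replicate 2 of 17β-HSD1 siRNA with E2.

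**Figure D3:**
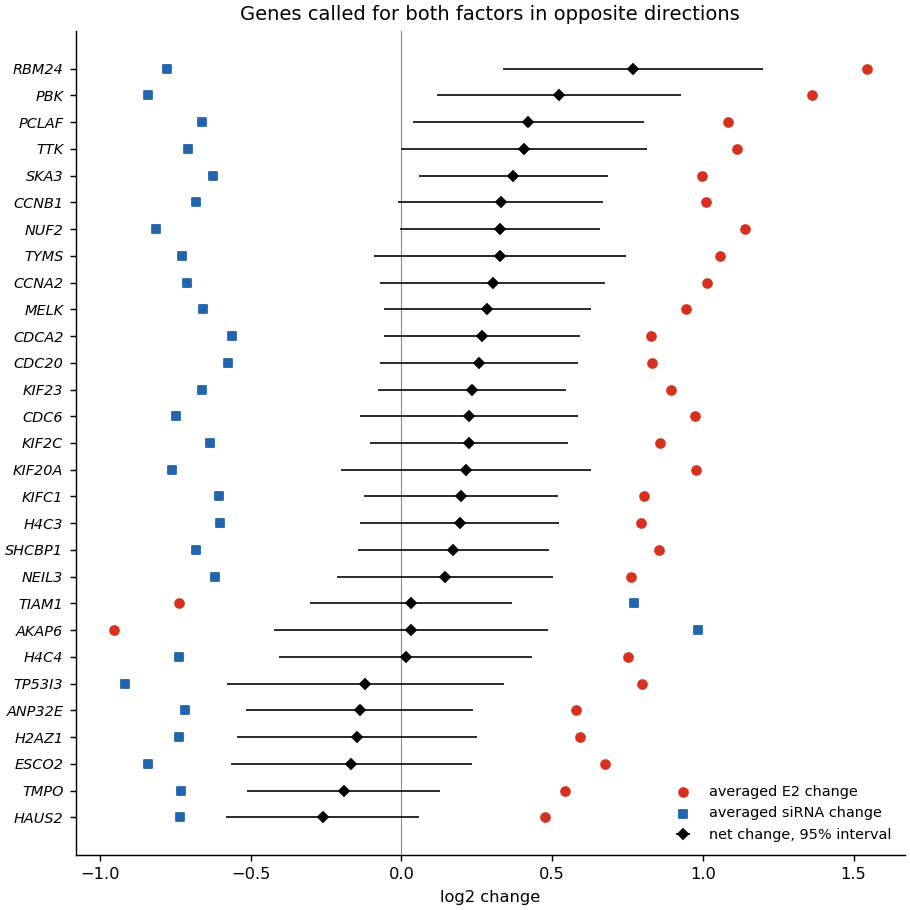
For the 29 genes called for both factors in opposite directions, the averaged E2 change (red circles), the averaged siRNA change (blue squares) and the net change with its 95% interval (black diamonds) are drawn on a log2 axis. The net changes lie between -0.26 (HAUS2) and 0.77 (RBM24), and the intervals of most genes include 0.

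Promoters of this group are shown because a large share hold the cell cycle homology region, TTTGAA, an element of genes expressed in G2 and mitosis. KIF23, a kinesin gene of cytokinesis, and CDC20, an activator of the anaphase-promoting complex, were picked for display after their values were seen. The windows are again the 250 bases before the start, on the plus strand of GRCh38.p14: chr15:69414099-69414348 for KIF23 and chr1:43358731-43358980 for CDC20. Capitals mark TTTGAA or its reverse complement.
KIF23: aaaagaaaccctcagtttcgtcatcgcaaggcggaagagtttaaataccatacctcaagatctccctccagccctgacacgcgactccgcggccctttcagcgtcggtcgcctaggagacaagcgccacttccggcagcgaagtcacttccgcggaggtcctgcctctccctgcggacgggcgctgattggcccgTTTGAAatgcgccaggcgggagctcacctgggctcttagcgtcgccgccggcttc
CDC20: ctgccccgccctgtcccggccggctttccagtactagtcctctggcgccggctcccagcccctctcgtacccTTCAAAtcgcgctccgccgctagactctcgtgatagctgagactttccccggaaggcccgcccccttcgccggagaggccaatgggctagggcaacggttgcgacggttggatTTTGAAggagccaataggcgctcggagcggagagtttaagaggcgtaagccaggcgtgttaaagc
The element lies 55 bases before the start in KIF23, and at 178 and 65 bases in CDC20. Of the 27 genes with a positive E2 part, 21 had a listed promoter and 9 of these (42.9%) held TTTGAA on either strand, against 2240 of 14239 genes overall (15.7%) and 30 of 42 genes of the mitosis list (71.4%). The E2F strings TTTGGCGC and TTTCCCGC were in 3 of the 21 (14.3%) and in 3.79% of all genes. KIF23 had a net difference of 0.23 ± 0.14 from parts of 0.90 and -0.66, and CDC20 0.26 ± 0.15 from parts of 0.83 and -0.57.

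How much of each single-factor change was left in the combined state differed between the 4 sets of genes called in the averaged contrasts. The share kept is the net difference as a percent of the called part. The 257 genes raised by E2 had a median E2 part of 0.77, a median siRNA part of -0.43 and a median net difference of 0.34, and they kept a median of 44.9%. In 35 of them at least 75% was kept, in 181 between 25% and 75%, and in 41 less than 25%. Of the 45 genes lowered by E2, 20 kept at least 75%, 18 an intermediate share and 7 less than 25%, with a median of 66.6%. The 38 genes raised by the siRNA kept a median of 105%, and 32 of them at least 75%. The 44 genes lowered by the siRNA kept a median of 16.2%: 11 kept at least 75%, 8 an intermediate share and 25 less than 25%, with a median E2 part of 0.71 against a median siRNA part of -0.73. The shares rest on arrays that both quantities use, and a chosen part is on average overestimated, so the shares are a description of these arrays.

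Some genes called in a single-factor contrast are given here because they had the highest net p, so a net difference near 0 follows from the choice and is a description only. RRM1, the large subunit of ribonucleotide reductase, had a signal of 9.56 and 9.64 in the controls and 9.56 and 9.60 after both, with a net difference of -0.02 (95% interval -0.36 to 0.31) and parts of 0.51 and -0.53. HSPA4L, a chaperone gene, stood at 8.12 and 7.96 against 7.97 and 8.13, a net difference of 0.01 with parts of 0.60 and -0.59. Both had overlapping groups. BLNK, an adaptor gene, had a net difference of -0.03 and EGLN3, an oxygen-sensing prolyl hydroxylase gene, -0.12, against E2 parts of -0.54 and -0.76. SLITRK6 and TOM1L2, raised by the siRNA by 1.34 and 0.65, had net differences of 0.27 and 0.22. The sign of some of these depended on 1 array: without single arrays SLITRK6 ran from -0.22 to 0.75 and EGLN3 from -0.39 to 0.16.

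The gene lists are described next. They hold many of the single genes above and rest on the same arrays, so they are not an independent view. All 38 measured interferon-stimulated genes had a net difference above 0, where 8701 of 18417 genes did, and 37 had groups that did not overlap, against 15.4% of all genes in that direction. Their median net difference was 1.26, against -0.01 for all genes, with medians of 0.31 for the E2 part and 0.98 for the siRNA part. None passed without the block in the limma fit and 23 passed with it, where 0.00543% and 0.331% of all genes did. Without adjustment 34 had a net p below 0.05, all higher, against 2.08% of all genes. The mean signal of the list was 8.16 and 8.44 in the controls and 9.53 and 9.74 after the combined treatment. ISG20, IRF7 and IRF9 had the smallest net differences, 0.10, 0.22 and 0.35. In the list of double-stranded RNA sensors, IFIH1 (encoding MDA5), RIGI and the 4 OAS family genes passed with the block, with net differences from 1.42 to 1.68. The list also held members that are not such sensors. Of these the single-stranded RNA receptor genes TLR7 and TLR8, the adaptor gene MAVS and the transcription factor gene IRF3 lay between -0.35 and -0.10. TLR7 and TLR8 were dim, between 4.60 and 5.55 in the 4 arrays. TLR3, the endosomal receptor for double-stranded RNA, had 0.87 ± 0.21, from 6.47 and 6.34 to 7.20 and 7.34, and did not pass with the block (limma adjusted p = 0.110).

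All 34 measured estrogen-induced genes had a net difference above 0. The median was 0.54, with medians of 0.70 for the E2 part and -0.13 for the siRNA part. GREB1 passed without the block and 6 passed with it (CXCL12, GREB1, OLFM1, PGR, RAPGEFL1 and RERG), where 0.00543% and 0.331% of all genes did. The smallest net differences were in XBP1 (0.06), CCND1 (0.08), IRS1 (0.10) and TFF1 (0.14). Of the 22 estrogen-repressed genes, 18 lay below 0, with a median net difference of -0.34 from medians of -0.48 and 0.19. None passed with or without the block in the limma fits, and 8 had an unadjusted p below 0.05, all lower, against 1.75% of all genes. BAMBI, which encodes a pseudoreceptor that dampens TGF-β signalling, had a signal of 11.20 and 11.11 in the controls and 10.16 and 10.20 after both. Its arrays were tight and the groups apart, with a net difference of -0.97 ± 0.19 (limma adjusted p = 0.183, and 0.0731 with the block). CCNG2, an atypical cyclin gene, had -0.84 ± 0.21, ERBB2, the receptor tyrosine kinase gene, -0.58 ± 0.16 and TP53INP1, a p53-induced stress gene, -0.59 ± 0.20.

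**Figure D4:**
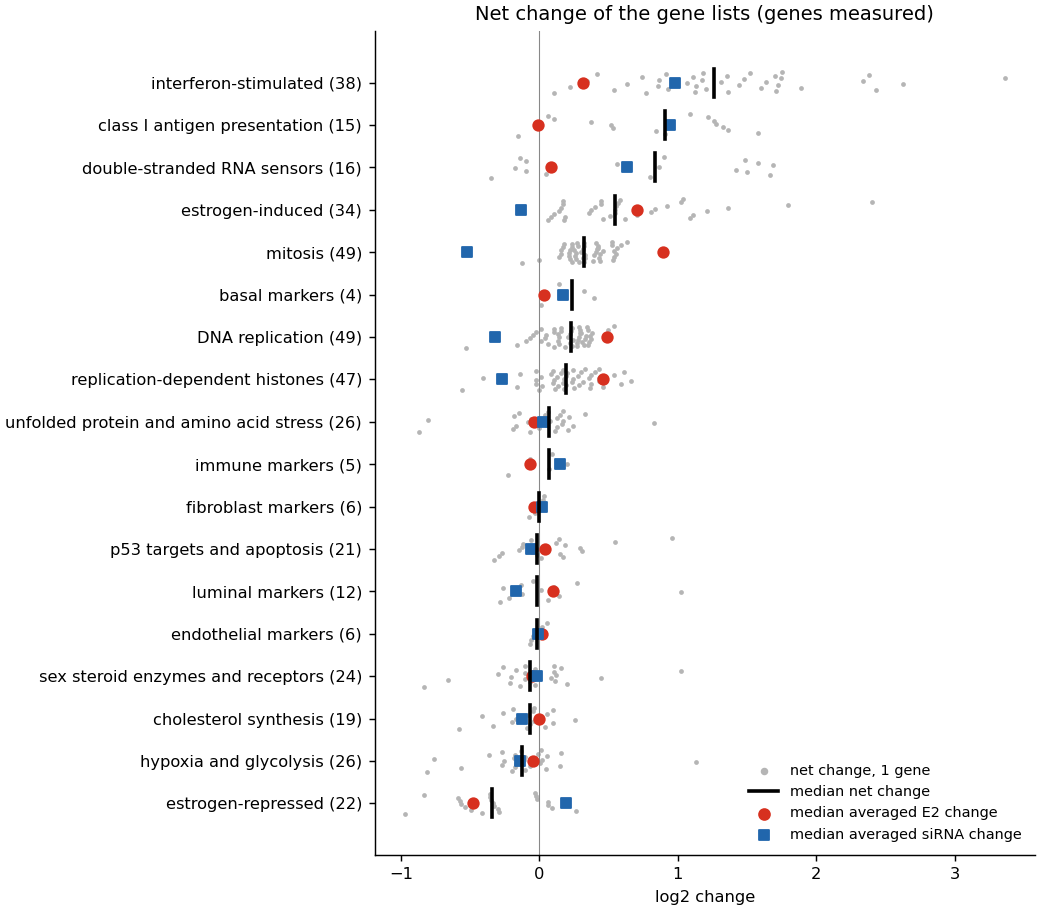
For each gene list, with the number of genes measured in parentheses, grey points give the net change of each gene, the black bar the median net change, the red circle the median E2 part and the blue square the median siRNA part, all as log2 changes. The interferon, class I and sensor lists have the black bar near or beyond the blue square, the estrogen lists near the red circle, and the mitosis, replication and histone lists between both symbols.

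In the 3 proliferation lists the median parts had opposite signs and the median net difference was above 0. In bulk RNA a change in the share of dividing cells and a change in RNA per dividing cell cannot be told apart. The 49 mitosis genes had a median net difference of 0.32 from an E2 part of 0.90 and an siRNA part of -0.52. The E2 part was called upward in 40, against 1.4% of all genes, and the siRNA part downward in 10, against 0.239%, and the net difference in 0, with or without the block (limma). Without adjustment 12 had a net p below 0.05, all higher (2.08% of all genes), and in 36 the groups did not overlap and the combined treatment was higher (15.4% of all genes). CCNB2, a mitotic cyclin gene, had 0.63 ± 0.22, from 8.25 and 8.87 to 9.17 and 9.21, and ESPL1, which encodes the protease separase, 0.54 ± 0.18, from 7.91 and 8.21 to 8.71 and 8.50. The combined arrays were the higher ones in both. Taken by route, the median of the list was 0.78 above the control with E2 alone and 0.61 below it (-0.61) with the siRNA alone. E2 given after the siRNA added 0.99.

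The 49 DNA replication genes had a median net difference of 0.22 from parts of 0.49 and -0.32, and the 47 replication-dependent histone genes 0.19 from 0.46 and -0.27. No gene of either list passed with or without the block in limma. Unadjusted p-values below 0.05 were found for 5 replication genes higher and 1 lower, and for 9 histone genes higher and 1 lower, where 2.08% of all genes were higher and 1.75% lower. MCM10 and GINS2, parts of the replication start machinery, had net differences of 0.54 ± 0.17 and 0.49 ± 0.17. POLE3, a histone-fold subunit of DNA polymerase ε, was the lower one at -0.53 ± 0.16, from 9.05 and 8.82 to 8.48 and 8.33, with an siRNA part of -0.93 and an E2 part of 0.40. Histone genes have near-identical copies and the probe sets may not tell them apart. H2BC9 had the smallest p among them, with a net difference of 0.61 ± 0.15.

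**Figure D5:**
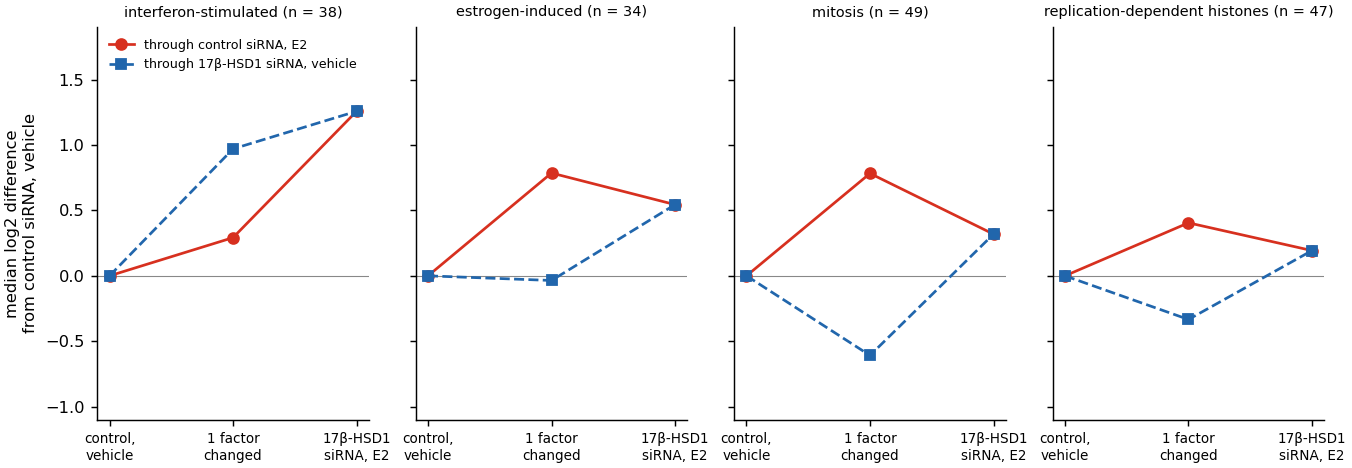
For 4 lists the median log2 difference from control siRNA with vehicle is drawn after 1 factor and after both, by way of E2 alone (red, solid) or the siRNA alone (blue, dashed). The interferon-stimulated list reaches 1.26 with most of the step where the siRNA enters, the estrogen-induced list reaches 0.54 with the step where E2 enters, and the mitosis list ends at 0.32 after steps of opposite sign.

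The lists of stress and metabolism had medians near 0. The unfolded protein and amino acid stress genes had a median net difference of 0.07, the p53 and apoptosis genes -0.01, the cholesterol synthesis genes -0.07, the sex steroid enzymes and receptors -0.07 and the hypoxia and glycolysis genes -0.12. Of the 26 hypoxia and glycolysis genes, 18 lay below 0. Groups did not overlap in 13 lower and 1 higher. Of the 19 cholesterol genes 13 lay below 0, with 7 lower and 2 higher without overlap. Among all genes 17.4% were lower and 15.4% higher without overlap. DDIT4, an inhibitor of mTOR signalling, had -0.81 ± 0.19, from 8.79 and 8.91 to 8.11 and 7.98, and HERPUD1, a gene of endoplasmic reticulum-associated degradation, -0.87 ± 0.29, from 10.60 and 9.54 to 9.28 and 9.13. The combined arrays were below the controls in both, but the controls of HERPUD1 were more than 1 log2 unit apart. TNFSF10, the gene of the death ligand TRAIL, passed with the block, at 0.96 ± 0.26 from 7.54 and 7.88 to 8.52 and 8.81, with an siRNA part of 0.92. Among the hypoxia genes PFKFB3 passed upward with the block while NDRG1 (-0.76 ± 0.21), ALDOC (-0.81 ± 0.27) and KDM3A (-0.57 ± 0.17) lay below 0 and did not pass. TM7SF2, a sterol reductase gene, had -0.58 ± 0.18.

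Among the steroid enzymes, HSD17B6 had the most negative net difference, -0.83 ± 0.20, with a signal of 6.38 and 5.89 in the controls and 5.27 and 5.34 after both, dim values below the array medians. HSD17B12, a member of the same family that acts mainly on fatty acids, had 0.45 ± 0.19, from 8.31 and 8.20 to 8.61 and 8.78. Neither passed with the block (limma adjusted p = 0.198 and 0.734). In both the groups did not overlap, which was also true of 17.4% of all genes downward and 15.4% upward.

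Whether the combined state departed from the sum of the single-factor changes was tested with the interaction term. The limma test called 0 genes, and 109 had an unadjusted p below 0.05, fewer than the 920.85 that a uniform spread of p-values would give. A count of 0 does not show that the changes were additive.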

How the data were processed

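RNA of 8 T47D cultures was measured on 8 arrays, 4 groups of 2. The values are the log2 probe set signals deposited by the authors, one column per array. How they were summarised and normalized is not given in the sources used here. They entered the fit unchanged, and the number of arrays limits the precision.

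The table has 33297 probe sets. Of these, 19460 carry 1 symbol in the platform annotation, 1754 several and 12083 none, and 19429 of the first were matched to RefSeq (GRCh38.p14), the source of names and promoter sequences. The 21214 probe sets with a symbol were fitted with limma (version 3.58.1, R version 4.3.3) by lmFit and eBayes, with a coefficient for each group and the spread taken from all 8 arrays, and p-values were adjusted over all of them by Benjamini-Hochberg. Results were counted over genes, each by its single-symbol probe set with the highest mean. Of 464 list entries, 419 were measured. The others are not analysed here.

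The labels name 2 independent culture experiments and number the replicates 1 and 2. The number was taken as the experiment and also fitted as a block. Deviations of same-numbered arrays from their group means correlated at 0.0075 between the 2 groups compared, at 0.44, 0.31, 0.31 and 0.42 in other pairs of groups and at -0.20 between control siRNA, vehicle and 17β-HSD1 siRNA, vehicle.

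The groups compared, the lists and the tests were chosen with earlier results of these data known. Classes from the blocked fit, the blocked fit without each array and the block with exchanged numbers were added after seeing the data. Genes were named by rule: the target, the called genes with non-overlapping groups by size (filled to 4 per direction by p), up to 8 per class, up to 4 per list, and genes called for 1 factor with the largest net p. Alternatives were the block, all probe sets, 1 probe set per gene, a filter on dim probe sets, quantile normalization, a trended robust spread, the 4 arrays alone, an additive model, a fold threshold, other class shares and leaving out each array. The fit was tested on simulated data.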

Additional observations from a re-analysis of the deposited data

How the results depend on the processing

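The net difference without the replicate block called 1 gene higher and 0 lower. With the replicate block it called 61 and 4, on the 4 compared arrays alone 78 and 15, in the additive model 4 and 1, and with probe sets without a symbol included 0 and 0. A block in which the control siRNA, vehicle numbers were exchanged, added after seeing the data, called 7 and 1. Without each array in turn the counts ran from 0 to 51 higher and from 0 to 4 lower. The highest counts came from leaving out a control siRNA, E2 array. Leaving out replicate 1 or replicate 2 of that group gave the same net test, because the array left alone adds nothing to the spread. The count of higher genes was 0 when control siRNA, vehicle replicate 2 was missing and when replicate 1 or replicate 2 of 17β-HSD1 siRNA with E2 was, and 2 without control siRNA, vehicle replicate 1. The HSD17B1 difference ran from -1.002 to -0.31.

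The 29 genes called for both factors in opposite directions were 96 with the block, 57 in the additive model, 58 with the exchanged block, 0 with symbol-less probe sets included and 0 to 56 without single arrays. Genes from both parts numbered 0, or 16 with the block and 0 to 31 without single arrays. Mainly E2 genes numbered 1, or 9 with the block, 3 with the exchanged block, 0 with symbol-less probe sets included and 0 to 8 without single arrays. Mainly siRNA genes numbered 0, or 39 with the block, 3 in the additive model, 4 with the exchanged block and 0 to 41 without single arrays. Opposed genes numbered 0, or 1 with the block, in the additive model and with the exchanged block, and 0 to 4 without single arrays. A class share of 15% or 35% in place of 25% left the counts without the block as they were. With the block the mainly siRNA genes numbered 22 and 48 and the genes from both parts 34 and 6. In the same order the mainly E2 genes numbered 6 and 11 and the opposed genes 3 and 0. The cause of these shifts was not tested.

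Over 115 named genes and their alternatives, 1746 values kept direction and side of the threshold, 161 newly passed, 4 no longer passed and 34 changed sign. HSPA4L was -0.00178 after further quantile normalization. The other changes of sign came from leaving out an array, with these ranges: AKAP6 from -0.29 to 0.35, BLNK from -0.069 to 0.017, CDH10 from -0.43 to 1.16, CLDN5 from -0.078 to 0.19, COL1A1 from -0.044 to 0.11, COL1A2 from -0.11 to 0.069, EGLN3 from -0.39 to 0.16, H4C4 from -0.10 to 0.13, HSPA4L from -0.073 to 0.091, HYLS1 from -0.12 to 0.16, IL1R1 from -0.90 to 0.39, KIF20A from -0.018 to 0.45, KRT5 from -0.044 to 0.071, MYLK from -0.12 to 0.41, PDGFRA from -0.19 to 0.13, PTPRC from -0.033 to 0.17, RRM1 from -0.065 to 0.022, SLITRK6 from -0.22 to 0.75, TIAM1 from -0.035 to 0.10, TP53I3 from -0.36 to 0.12, VWF from -0.20 to 0.065.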
